A study of Mus musculus with 12 samples.

Results

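Chromatin accessibility near 9 genes for the release, movement and activation of neutrophils was followed with age in mouse bone marrow. The genes were Csf3r, Fpr1, Fpr2, Itgam, Itgb2, Selplg, Trem1, Ptafr and Prok2. A peak of the deposited consensus table was taken when its centre lay in one of these genes or within 15 kb of its ends (RefSeq gene positions on GRCm38.p6), and it was given to the nearest of the 9. By this rule 70 of the 75281 peaks were chosen: 15 near Itgb2, 13 near Selplg, 11 near Csf3r, 10 near Itgam, 8 near Ptafr, 5 near Trem1, 4 near Fpr2, 3 near Fpr1 and 1 near Prok2. Their centres lay inside the gene for 29 peaks and outside it for 41. For 15 of the 70, another protein-coding gene lay nearer.

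The marrow was that of the inbred, obesity-prone strain NZO/HILtJ and was assayed by ATAC-seq, in which a transposase cuts and tags open DNA. The 12 libraries formed 4 groups of 3: females and males aged 3 months, and females and males aged 18 months, with no treatment and no altered gene named in the labels. Each library was made from 50000 cells, per the protocols, which also describe a sort of CD3e+ CD8+ T cells. No sorted type is named in the sample labels, whose tissue is bone marrow. Peaks lay near 14 of 14 neutrophil granule genes, 14 of 15 erythroid genes, 9 of 9 B cell genes and 9 of 10 T cell genes, Cd3e, Cd3d and Cd3g included. In all, 16919 protein-coding genes had a tested peak within 15 kb, so a peak near a marker does not show which cells were assayed. Cd8b1 had no peak, and the 1 peak near Cd8a stood at 2.42 ± 0.517 CPM at 3 months against 2.29 ± 0.458 at 18 months (n = 6 each, SD). The labels give every library a number of its own but do not say that each came from a separate mouse, so p-values measure the spread between these libraries.

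Neutrophils are made in the marrow under the control of the cytokine G-CSF and leave it for the blood, from which they enter tissue by rolling on the vessel wall, holding fast to it and crawling toward a source of chemoattractant. Csf3r is the receptor for G-CSF. Selplg encodes PSGL-1, the ligand on which leukocytes roll over selectins, and Itgam and Itgb2 encode the alpha and beta chains of the integrin Mac-1 (CD11b/CD18), which holds the cell to the endothelium. Fpr1 and Fpr2 sense formylated peptides from bacteria and mitochondria, Ptafr senses the lipid platelet-activating factor, Trem1 amplifies inflammatory signals through an adaptor protein, and Prok2 is a small secreted chemoattractant peptide made by neutrophils.

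RefSeq promoter entries on GRCm38.p6 matched 7 of the 9 genes by symbol, all but Itgb2 and Selplg. Shown for Fpr1, Fpr2, Itgam, Trem1 and Prok2 are the 250 bases before the start site, 5′ to 3′ on the strand of the gene, chosen because these genes differ in how far their accessibility moved with age. Capitals mark matches to motifs, searched on both strands in these 250 bases.
Fpr1, chr17:17883940-17884189, minus strand: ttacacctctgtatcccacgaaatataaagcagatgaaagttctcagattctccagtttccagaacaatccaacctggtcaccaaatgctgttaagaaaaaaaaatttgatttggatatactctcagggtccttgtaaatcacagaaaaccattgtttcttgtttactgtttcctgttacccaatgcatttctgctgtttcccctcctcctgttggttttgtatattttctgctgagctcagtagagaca
Fpr2, chr17:17887574-17887823, plus strand: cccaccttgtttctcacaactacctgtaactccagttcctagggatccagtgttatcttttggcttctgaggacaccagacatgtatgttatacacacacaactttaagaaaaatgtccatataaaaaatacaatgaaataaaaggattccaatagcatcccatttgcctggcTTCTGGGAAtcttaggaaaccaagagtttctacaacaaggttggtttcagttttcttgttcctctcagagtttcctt
Itgam, chr7:128062390-128062639, plus strand: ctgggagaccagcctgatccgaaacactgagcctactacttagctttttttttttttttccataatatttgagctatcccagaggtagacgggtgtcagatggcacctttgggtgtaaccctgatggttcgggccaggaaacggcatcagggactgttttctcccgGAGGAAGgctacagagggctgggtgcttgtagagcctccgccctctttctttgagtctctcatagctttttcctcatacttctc
Trem1, chr17:48232489-48232738, plus strand: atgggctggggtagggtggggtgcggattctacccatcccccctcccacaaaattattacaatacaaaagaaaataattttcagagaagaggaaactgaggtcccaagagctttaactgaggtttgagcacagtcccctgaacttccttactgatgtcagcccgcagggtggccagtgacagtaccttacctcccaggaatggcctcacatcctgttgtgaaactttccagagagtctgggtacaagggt
Prok2, chr6:99726393-99726642, minus strand: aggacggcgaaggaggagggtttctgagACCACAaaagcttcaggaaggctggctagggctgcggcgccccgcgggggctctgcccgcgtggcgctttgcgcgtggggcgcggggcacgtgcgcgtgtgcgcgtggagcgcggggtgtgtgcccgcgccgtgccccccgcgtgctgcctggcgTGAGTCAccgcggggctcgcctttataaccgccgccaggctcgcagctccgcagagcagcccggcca
A peak given to the gene covered all 250 bases at Fpr2, Trem1 and Prok2 and 171 of them at Itgam, and none of the 3 peaks of Fpr1 reached its window. The share of G and C was 73.6% at Prok2 and 38.4% and 38.8% at Fpr1 and Fpr2.

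Motifs of 5 factor families that act in myeloid cells were searched, and a match is given here as letters only. The PU.1-type ETS motif GAGGAAG was found in 2 of the 7 promoters, Csf3r and Itgam (-84 to -78 from the start site at Itgam), against 10.6% of all 32851 promoter entries. The AP-1 motif TGANTCA (6.75% of entries) matched as TGAGTCA at -67 to -61 of Prok2, and the RUNX motif TGTGGT (14.05% of entries) matched on the other strand as ACCACA at -222 to -217 of the same gene. The STAT motif TTCCNNGAA (4.06% of entries) matched on the other strand as TTCTGGGAA at -77 to -69 of Fpr2. The C/EBP motif TTGCNNAA (9.56% of entries) matched none of the 7. No match overlapped another.

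Counts per library totalled 7668099 to 12756647, and values of peaks are given as CPM, the count scaled to the library total with TMM factors. CPM summed over a gene or a list is scaled to the total of the summed gene counts, where a peak counts once for each gene it lies near. No sequencing run held both ages, so age and run cannot be told apart, and at 18 months the 2 sexes were also in separate runs. The 3-month male library BM-253, the only one of its run, stood apart from the other 3-month libraries. The summed CPM of the 9 genes was 818.6 in it, 567 to 645 in the other 3-month libraries, and 722 to 808 at 18 months. For the summed neutrophil granule genes it was 1119 CPM in library BM-253, 869.9 to 976 CPM in the rest of the 3-month libraries and 1096 to 1289 CPM at 18 months.

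With age, accessibility near these genes was higher in more peaks than it was lower. Of the 70 peaks, 16 (22.9%) were higher at 18 months than at 3 months and 1 (1.43%) was lower in the fit with sex as covariate (edgeR, adjusted p under 0.05), against 9.43% higher and 11.6% lower among all tested peaks. The other 53 peaks were not called. The median log2 fold change was 0.16 over the 70 peaks and 0.024 over all tested peaks, and 52 of the 70 estimates lay above 0 (74.3%, against 53.0% of all). In the 16 higher peaks it ran from 0.30 to 0.77. Inside the genes 10 of 29 peaks were higher and 0 were lower (adjusted p), and outside them 6 of 41 were higher and 1 was lower. In bulk marrow a change in the number of neutrophils and a change in openness per cell cannot be told apart.

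The ages separated without overlap in 4 of the 70 peaks (5.71%), all higher at 18 months and all at Fpr1 or Fpr2, against 2.2% of all tested peaks. None was lower without overlap, against 5.04% of all. The count of higher peaks moved with single libraries. Without the 3-month female library BM-245 it was 6 (8.57%, against 6.67% of all peaks), without the 3-month male library BM-251 it was 10 (14.3%, against 7.03%), and without library BM-253 it was 22 (31.4%, against 12%). Other scalings and tests gave both more and fewer: 24 (34.3%, against 14.9% of all peaks higher and 8.82% lower) by total counts, 23 (32.9%, against 9.59%) with offsets for a trend in abundance, 19 (against 8.44%) with offsets for peak width and 13 (against 8.53%) with DESeq2. Of the 16 peaks, 6 were called in each of the 12 fits that left out 1 library: the 3 of Fpr1, the Fpr2 peak at chr17:17889692-17890674, the Itgb2 peak at chr10:77547911-77549298 and the Ptafr peak at chr4:132588439-132589068.

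**Figure D1:**
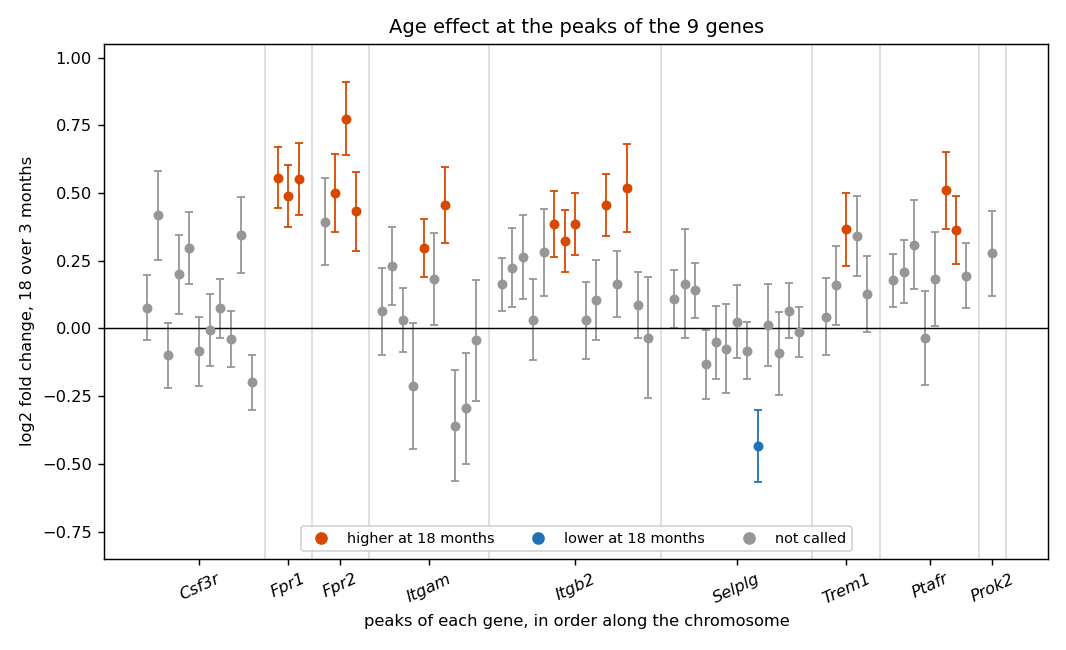
Log2 fold change of 18 months over 3 months with its standard error for each of the 70 peaks, grouped by gene, with called peaks marked. The 3 peaks of Fpr1 and the 4 of Fpr2 lie between 0.39 and 0.77, while the 13 peaks of Selplg lie around 0 with 1 called lower at -0.43.

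Summed over all peaks of a gene, 6 of the 9 genes (66.7%) were higher at 18 months and 0 were lower (edgeR adjusted p under 0.05; 0 were also lower at an unadjusted p under 0.05 and with DESeq2), against 20.6% higher and 21.8% lower of 16919 protein-coding genes. The 6 were Fpr1, Fpr2, Itgam, Itgb2, Trem1 and Ptafr, and Csf3r, Selplg and Prok2 were not called. The median log2 fold change was 0.32 for the 9 genes and 0.0058 for all genes. These gene sums are scaled to the total of the summed gene counts, in which a peak counts once for each gene it lies near, so they are not on the scale of the single peaks. When the gene sums were scaled with the factors of the peak table instead, an alternative added after seeing the data, the median over all genes was -0.073 and 4 of the 9 genes were called higher, against 10.8% higher and 30.3% lower of all genes. Itgam (0.16, edgeR adjusted p = 0.143) and Trem1 (0.21, edgeR adjusted p = 0.163) were then not called, and the estimates were 0.011 for Csf3r and 0.0016 for Selplg. Without library BM-253 the 18-month libraries lay above all the other 3-month libraries in 6 of the 9 genes, against 11.5% of all genes. In the fit without it all 9 were called higher, against 22.4% of all genes, with log2 fold changes from 0.12 to 0.64 and a highest adjusted p of 0.0433. Library BM-253 was the highest 3-month library in 8 of the 9 genes. Leaving it out thus raises their estimates by construction and is no added support.

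**Figure D2:**
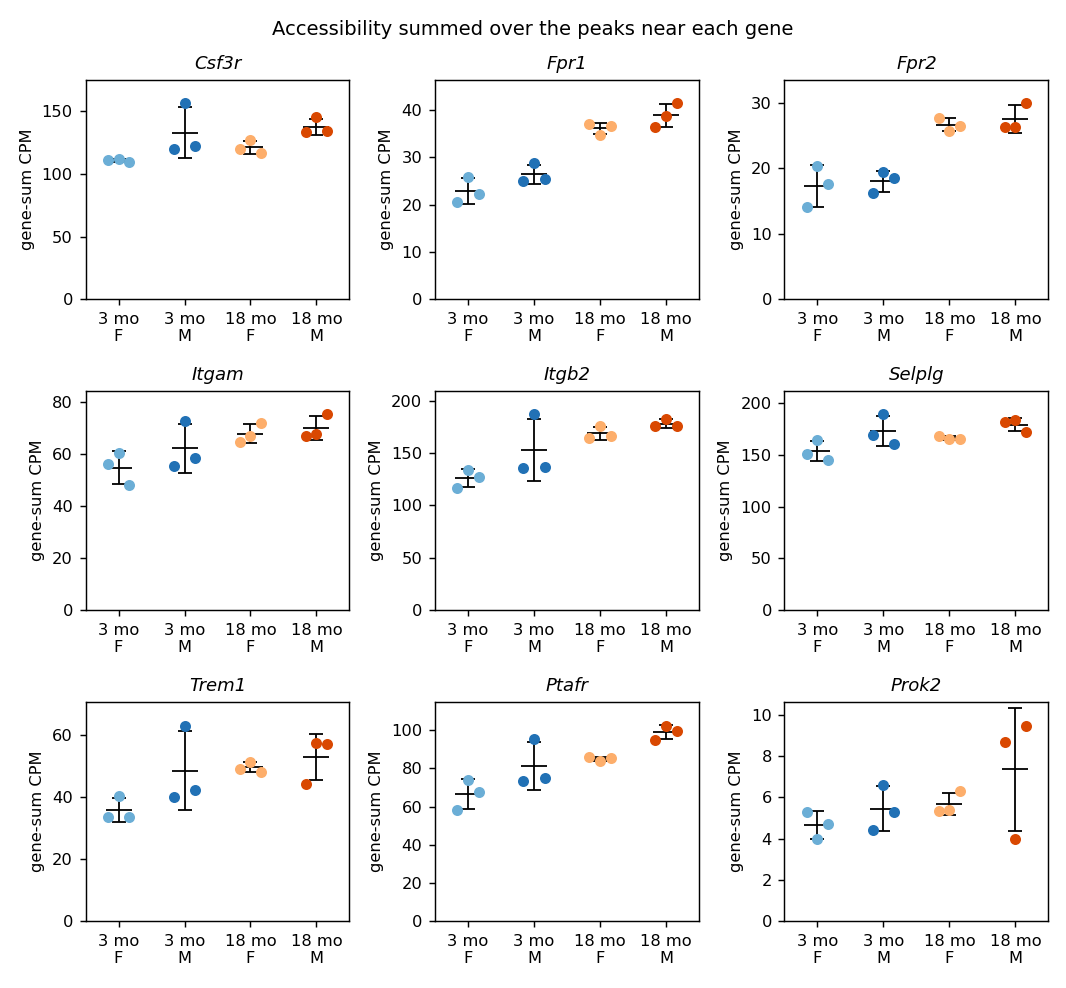
Summed CPM of the peaks near each gene in the 12 libraries, by age and sex; points are libraries, and lines the group mean and SD (n = 3 each). The 18-month libraries lie wholly above the 3-month libraries for Fpr1 and Fpr2, and for Csf3r, Itgb2 and Trem1 the highest 3-month value is the male library BM-253.

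The formyl peptide receptors had the largest age effects of the 9 genes. The lowest, median and highest summed values near Fpr1 were 20.6, 25.3 and 28.7 CPM at 3 months and 34.8, 36.8 and 41.4 CPM at 18 months. Near Fpr2 they were 14.04, 18.02 and 20.3 CPM at 3 months and 25.8, 26.4 and 29.99 CPM at 18 months. All 6 libraries of 18 months lay above all 6 of 3 months for both genes, in females and in males, which was so for 6.27% of all genes. The log2 fold change was 0.61 ± 0.067 (SE; edgeR adjusted p = 4.30e-07) for Fpr1 and 0.62 ± 0.081 (SE; edgeR adjusted p = 4.10e-06) for Fpr2, or 1.52-fold and 1.54-fold. Both genes lie side by side on chromosome 17, and each peak was counted for 1 of them only. Near Fpr1 all 3 peaks were higher, and near Fpr2 3 of 4.

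The Fpr2 peak with the highest mean and the smallest p lay inside the gene at chr17:17889692-17890674, 2359 bp past the start site. Its lowest, median and highest values were 5.93, 7.49 and 9.29 CPM at 3 months and 10.99, 12.7 and 15.6 CPM at 18 months, with a log2 fold change of 0.77 ± 0.14 (SE; edgeR adjusted p = 2.62e-05). The ages did not overlap there. The peak over the Fpr2 promoter printed above, chr17:17887425-17888337, also separated the ages: the values were 4.56, 7.56 and 8.76 CPM at 3 months and 9.25, 10.5 and 11.3 CPM at 18 months, with a log2 fold change of 0.50 ± 0.14 (SE; edgeR adjusted p = 0.0095). The third higher peak of Fpr2, chr17:17900621-17901298, lay 7007 bp outside the gene and had a log2 fold change of 0.43 ± 0.15 (SE; edgeR adjusted p = 0.0293).

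At Fpr1 the peak nearest the start site, chr17:17882383-17883263, had values that were 7.50, 8.24 and 13.5 CPM at 3 months and 11.4, 13.2 and 15.4 CPM at 18 months and a log2 fold change of 0.55 ± 0.13 (SE; edgeR adjusted p = 0.002). The ages overlapped there. The Fpr1 peak with the smallest p, chr17:17864108-17865634, lay 11600 bp outside Fpr1 and nearer to Has1, a hyaluronan synthase gene. Its values were 10.9, 14.8 and 16.6 CPM at 3 months and 19.6, 21.4 and 22.6 CPM at 18 months and did not overlap, with a log2 fold change of 0.56 ± 0.11 (SE; edgeR adjusted p = 0.000218). The peak between these, chr17:17870857-17872332, had the highest mean of the 3: it measured 15.5 ± 2.38 CPM at 3 months against 21.7 ± 1.69 at 18 months (n = 6 each, SD), with a log2 fold change of 0.49 ± 0.11 (SE; edgeR adjusted p = 0.00129).

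**Figure D3:**
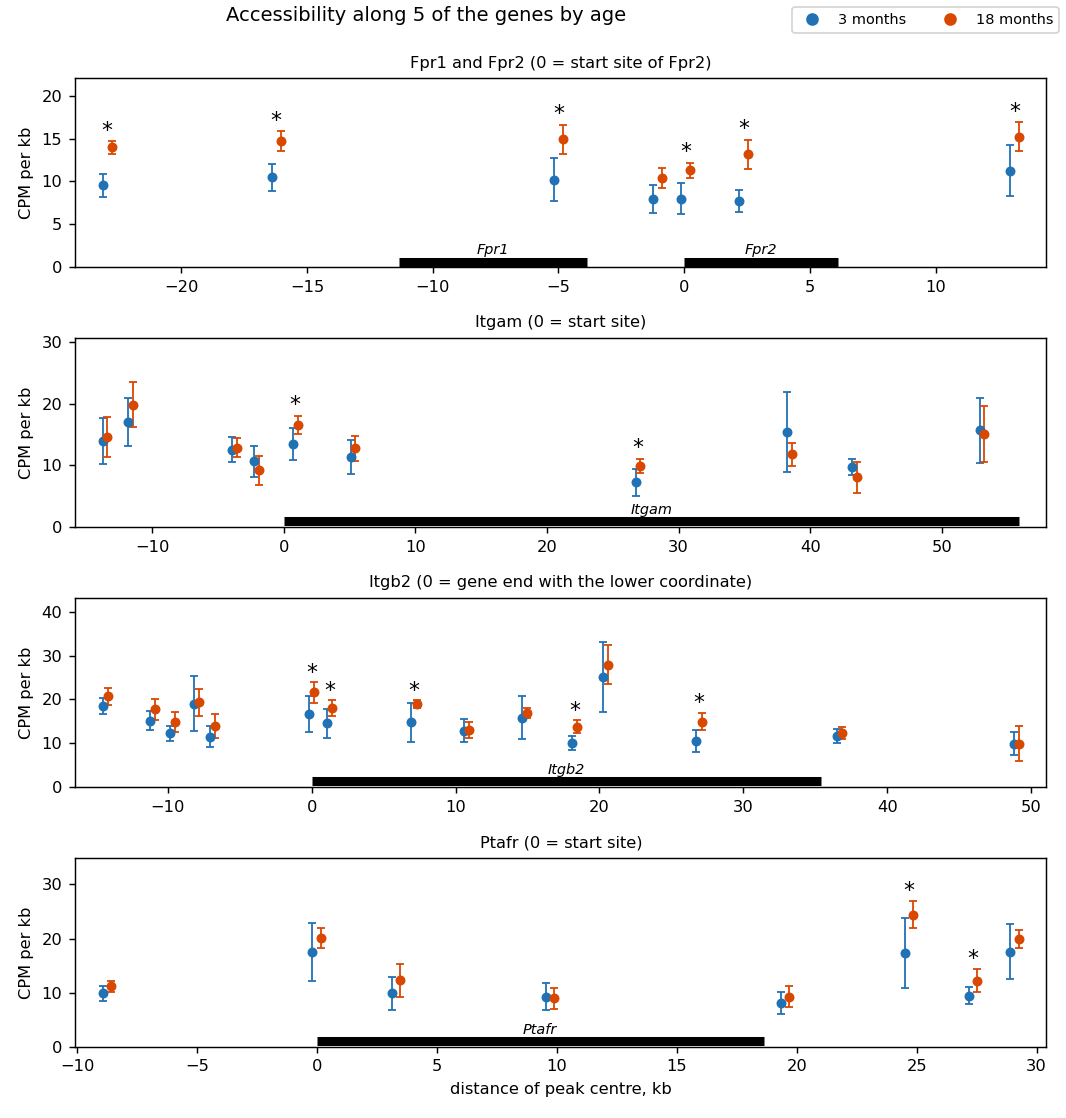
Mean CPM per kb of peak at 3 and 18 months (bars are SD, n = 6 libraries each) against the distance of the peak centre, in kb, for Fpr1 with Fpr2, Itgam, Itgb2 and Ptafr. The black bars are the genes, asterisks mark called peaks, and the points of each age are set slightly apart from the true centre; the 18-month mean is the higher one in all 7 peaks of Fpr1 and Fpr2.

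The chains of Mac-1 were both higher at 18 months. For Itgam the call was lost with the factors of the peak table (0.16, edgeR adjusted p = 0.143). The lowest, median and highest summed values near Itgb2, the beta chain shared by all leukocyte beta-2 integrins, were 117, 135 and 187 CPM at 3 months and 165, 176 and 183 CPM at 18 months. The ages overlapped only through library BM-253, the highest value of all 12. The log2 fold change was 0.32 ± 0.064 (SE; edgeR adjusted p = 0.00039), and 5 of 15 peaks were higher, all 5 inside the gene. The Itgb2 peak with the smallest p, chr10:77547911-77549298, had values that were 11.7, 13.8 and 17.7 CPM at 3 months and 16.5, 19.01 and 21.8 CPM at 18 months and a log2 fold change of 0.45 ± 0.12 (SE; edgeR adjusted p = 0.00322). The peak nearest a gene end, chr10:77529793-77530865, measured 17.8 ± 4.39 CPM at 3 months against 23.2 ± 2.58 at 18 months (n = 6 each, SD), a log2 fold change of 0.38 ± 0.12 (SE; edgeR adjusted p = 0.0175). The Itgb2 peak with the highest mean, chr10:77549864-77551661, was not called, at 0.16 ± 0.12 (SE; edgeR adjusted p = 0.36).

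Near Itgam, the alpha chain that makes the pair Mac-1, the lowest, median and highest summed values were 47.9, 57.1 and 72.7 CPM at 3 months and 64.5, 67.1 and 75.1 CPM at 18 months. The ages overlapped through library BM-253 alone, and the log2 fold change was 0.24 ± 0.067 (SE; edgeR adjusted p = 0.00725). Here 2 of 10 peaks were higher. One of them, chr7:128062469-128064565, covers part of the promoter printed above. It measured 28.3 ± 5.56 CPM at 3 months against 34.7 ± 3.16 at 18 months (n = 6 each, SD), a log2 fold change of 0.30 ± 0.11 (SE; edgeR adjusted p = 0.041), and it had both the highest mean of the Itgam peaks and the place nearest the start site. It was called in 4 of the 12 fits that left out 1 library. The other, chr7:128088904-128090201, lies 26912 bp past the start site inside the gene and had a log2 fold change of 0.46 ± 0.14 (SE; edgeR adjusted p = 0.0163). The 3 peaks farther along the gene had estimates of -0.36, -0.29 and -0.044 and were not called.

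Ptafr and Trem1, which respond to a lipid mediator and amplify inflammatory signals, were also higher. Near Ptafr the lowest, median and highest summed values were 58.1, 73.7 and 95.5 CPM at 3 months and 83.7, 90.4 and 102 CPM at 18 months. The ages overlapped through library BM-253 alone, and the log2 fold change was 0.32 ± 0.062 (SE; edgeR adjusted p = 0.000322). Of its 8 peaks 2 were higher, and both lay outside the gene, on the far side from the start site. The first, chr4:132588439-132589068, 6070 bp outside, had values that were 8.09, 8.89 and 18.6 CPM at 3 months and 12.8, 15.7 and 16.9 CPM at 18 months and a log2 fold change of 0.51 ± 0.14 (SE; edgeR adjusted p = 0.00722). The Ptafr peak at the start site, also its highest by mean, chr4:132563143-132564961, was not called, at 0.21 ± 0.12 (SE; edgeR adjusted p = 0.205). With only the peaks inside Ptafr counted, the gene was not called (0.24, edgeR adjusted p = 0.206).

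Near Trem1 the lowest, median and highest summed values were 33.6, 40.4 and 63.2 CPM at 3 months and 44.4, 50.4 and 57.5 CPM at 18 months. Library BM-253 was the highest of all 12, and the ages overlapped through it alone. The log2 fold change was 0.29 ± 0.098 (SE; edgeR adjusted p = 0.0207). The 1 higher peak of 5, chr17:48231962-48232879, covers the Trem1 promoter printed above and measured 16.4 ± 6.21 CPM at 3 months against 20.8 ± 2.31 at 18 months (n = 6 each, SD), a log2 fold change of 0.37 ± 0.13 (SE; edgeR adjusted p = 0.045). The Trem1 peak with the highest mean, chr17:48247080-48248026, lay nearer Trem3, a related receptor gene, and was not called, with an estimate of 0.13 ± 0.14 (SE). The Trem1 sum lost its call without any one of the 3-month libraries female BM-245, female BM-244 or male BM-251, with DESeq2 (adjusted p = 0.0607), and with the factors of the peak table (0.21, edgeR adjusted p = 0.163). The Trem1 promoter peak was called in 3 of the 12 fits that left out 1 library.

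Csf3r, Selplg and Prok2 were not called. Near Csf3r the lowest, median and highest summed values were 109.5, 116 and 157 CPM at 3 months and 117, 130.5 and 145 CPM at 18 months, and library BM-253 was the highest of all 12. The log2 fold change was 0.092 ± 0.053 (SE; edgeR adjusted p = 0.17), and none of its 11 peaks was called. The Csf3r peak at the start site, chr4:126024110-126025248, had a log2 fold change of -0.10 ± 0.12 (SE; edgeR adjusted p = 0.605). The Csf3r peak with the smallest p, chr4:126018828-126019243, had one of 0.42 ± 0.17 (SE; edgeR adjusted p = 0.0645), and the one with the highest mean, chr4:126056600-126059008, one of -0.20 ± 0.10 (SE; edgeR adjusted p = 0.164).

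Near Selplg the lowest, median and highest summed values were 145, 163 and 189 CPM at 3 months and 165, 170.0 and 184 CPM at 18 months. The log2 fold change was 0.083 ± 0.042 (SE; edgeR adjusted p = 0.119), the smallest of the 9, and 0.0016 with the factors of the peak table. Its 13 peaks went both ways and 1 was called, lower: chr5:113832182-113832947, 36 bp outside the gene. The values there were 10.98, 14.4 and 15.7 CPM at 3 months and 7.04, 10.03 and 13.9 CPM at 18 months, a log2 fold change of -0.43 ± 0.13 (SE; edgeR adjusted p = 0.0147). The call was lost without the 18-month male library BM-39 (-0.35) or the 3-month male library BM-251 (-0.38), and in females alone the peak was not called (-0.16, edgeR adjusted p = 0.608). The Selplg peak with the highest mean, also the highest of all 70, chr5:113840530-113844223, lay nearer Coro1c and had a log2 fold change of 0.066 ± 0.10 (SE; edgeR adjusted p = 0.689). Near Prok2 the single peak, chr6:99726070-99727143, covers the promoter printed above and measured 8.01 ± 1.65 CPM at 3 months against 9.75 ± 3.01 at 18 months (n = 6 each, SD). Its log2 fold change in the peak table was 0.28 ± 0.16 (SE; edgeR adjusted p = 0.212), the ages overlapping, and 0.36 on the scale of the gene sums (edgeR adjusted p = 0.0981).

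On the scale of the single peaks and per kb of peak, the mean level at 3 months was highest near Itgb2, at 15.6 ± 3.13 CPM per kb, followed by Trem1 at 14.02 ± 3.98, Csf3r at 13.8 ± 2.39, Selplg at 13.5 ± 1.62 and Ptafr at 12.6 ± 2.36 (SD, n = 6). Itgam at 12.3 ± 2.03, Fpr1 at 10.04 ± 1.32, Fpr2 at 8.58 ± 1.10 and Prok2 at 7.46 ± 1.53 CPM per kb came after them. At 18 months Itgb2 (18.3 ± 0.766) and Trem1 (16.04 ± 1.55) again stood first and Fpr2 (12.5 ± 0.825) and Prok2 (9.08 ± 2.81) last. Between them the order was Ptafr (14.8 ± 0.804), Fpr1 (14.4 ± 0.739), Csf3r (13.9 ± 0.808), Itgam (13.6 ± 0.792) and Selplg (13.5 ± 0.357 CPM per kb). Neighbours in either order were not tested against each other. The peaks were 233 to 3694 bp wide (median 932.5 bp; 706 bp over all peaks), and their median mean level was 10.6 CPM, against 7.001 CPM for all tested peaks.

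Within each sex the 2 ages were also compared. In females 13 of 70 peaks (18.6%) were higher at 18 months and 0 were lower (edgeR adjusted p; 0 also at an unadjusted p under 0.05 and with DESeq2), against 5.7% higher and 6.2% lower of all tested peaks. In males 3 peaks (4.29%) were higher and 2 (2.86%) were lower, against 3.21% and 8.18% of all. The male higher peaks were chr4:126026911-126027889 in Csf3r, chr17:17870857-17872332 near Fpr1 and chr17:17889692-17890674 in Fpr2, and the last pair of these was also higher in females. The male lower peaks were chr4:126056600-126059008 near Csf3r and chr5:113832182-113832947 near Selplg. The median log2 fold change was 0.25 in females, with 0.011 for all peaks, and 0.052 in males, with 0.027 for all peaks. Library BM-253 is a male library of 3 months, and without it 11 peaks were higher in males, against 3.25% of all peaks, while without the 18-month male library BM-40 1 was, against 1.83%. In females the count fell to 6 without the 3-month library BM-245 (2.78% of all peaks) or the 18-month library BM-36 (2.29%). It fell to 7 without the 3-month library BM-244 (2.33%) or the 18-month library BM-35 (2.84%).

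The difference between the sexes in the age effect was tested directly and was called in 0 of 70 peaks (edgeR; smallest adjusted p = 0.272; DESeq2 called 0 as well), against 0.00532% of all peaks. At an unadjusted p under 0.05 there were 10 peaks (14.3%), against 10% of all. In 55 of the 70 (78.6%, against 51.0% of all) the estimate was below 0, that is, a smaller rise or larger fall in males. The median difference was -0.16, and -0.0098 for all peaks. Library BM-253 is a 3-month male library, and how far this share and median rest on it was not tested. Leaving out each library in turn gave 0 calls except without the 3-month male library BM-252, which leaves BM-253 as 1 of 2 males of that age. Without BM-252, 4 of the 70 peaks were called lower, against 1.84% of all peaks. Chosen here after their values were seen, they were chr10:77536515-77538371 (-0.80) and chr10:77549864-77551661 (-0.86) in Itgb2, chr17:48247080-48248026 near Trem1 (-0.93) and chr4:132592578-132593729 near Ptafr (-0.77), with edgeR adjusted p from 0.00827 to 0.0365.

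In 3-month males the mean near Itgb2 was 153 ± 29.4 CPM and in 3-month females 126 ± 8.73 CPM, while at 18 months it was 178 ± 4.25 in males and 169 ± 6.33 in females (n = 3 each, SD). Near Fpr2 the mean went from 17.3 ± 3.15 to 26.7 ± 0.992 CPM in females and from 18.02 ± 1.66 to 27.6 ± 2.08 CPM in males (SD, n = 3 each). Near Itgb2 the spread was widest in 3-month males, the group of library BM-253.

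Genes that work with the 9 were counted from 7 lists, of which 71 of 73 genes had a peak: 35 were higher at 18 months, 8 were lower and 28 were not called (edgeR adjusted p under 0.05), with a median log2 fold change of 0.16. Over all genes these shares were 20.6% and 21.8% and the median 0.0058. With the factors of the peak table, 17 of the 71 were higher and 10 lower, with a median of 0.077, against 10.8% higher and 30.3% lower of all genes. Without library BM-253, also added after seeing the data, 45 were higher and 8 lower, with a median of 0.19, against 22.4% of all genes higher. The share of all genes lower without that library is not given here. Values in this and the next paragraph are log2 fold changes of gene sums unless given as CPM. Neighbouring genes of a list can share peaks and are then not independent. Of the chemoattractant receptors and ligands, 12 of 14 had a peak, 5 were higher and 1 was lower. The neutrophil-attracting chemokines Cxcl1 (0.49 ± 0.082 SE, adjusted p = 5.98e-05) and Cxcl2 (0.68 ± 0.089 SE, adjusted p = 4.26e-06) were higher, as were Fpr3 (0.73 ± 0.23 SE, adjusted p = 0.0128), Ltb4r1, the leukotriene B4 receptor (0.37 ± 0.057 SE, adjusted p = 2.57e-05), and Ccr1. The Fpr3 value rests on 1 peak of low level, with a mean of 1.48 CPM at 3 months and 2.44 CPM at 18 months. The chemokine receptors Cxcr2 (0.21) and Cxcr4 (0.030), which guide the exit and the retention of neutrophils in marrow, were not called, though Cxcr2 was without library BM-253 (0.37). Prokr1, a receptor for Prok2, was lower (-0.47 ± 0.088 SE, adjusted p = 0.000205). With the factors of the peak table, 4 of the 12 were higher and 1 lower, and Ccr1 was not called.

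Of the 16 adhesion and rolling genes, 7 were higher and 4 lower. Among the higher ones were Cd177, a neutrophil surface protein (0.49 ± 0.091 SE, adjusted p = 0.000189), Selp, the P-selectin that Selplg binds (0.32), Sele, Pecam1, Fut7 and Itgal (0.22), the alpha chain that pairs with Itgb2 to make LFA-1. The chains of the integrin VLA-4, Itga4 (-0.33) and Itgb1 (-0.32), were lower, as were Icam1 (-0.26) and B4galt1. Of 8 integrin activators, 3 were higher and 1 lower, and Fermt3 and Tln1, which bind the integrin tail, were not called. Of 12 adaptors, kinases and Fc receptors, 10 were higher and none lower, among them Tyrobp, the adaptor through which Trem1 signals (0.48 ± 0.075 SE, adjusted p = 3.37e-05), the kinase Syk (0.32) and Vav1 (0.29), and Fcer1g and Plcg2 were not called. Of the 5 NADPH oxidase genes, which make the oxidative burst, 4 were higher, Cybb (0.47) and Ncf1 (0.36) among them. Of 8 genes of G protein signalling and 10 of G-CSF signalling, 3 were higher and 1 was lower in each list. Socs3, Gab2 and Csf2rb (0.44) were the higher ones of the G-CSF list and Jak2 (-0.13) the lower one. With the factors of the peak table fewer genes were higher in every list here but that of the NADPH oxidase, where 4 of 5 still were: 2 of the adhesion genes (5 lower), 1 of the integrin activators (2 lower, Tln1 among them), 4 of the adaptors, kinases and Fc receptors (none lower), 0 of the G protein list (1 lower) and 2 of the G-CSF list (1 lower). Of the genes named as higher, Sele, Pecam1, Fut7, Itgal and Socs3 were then not called. These counts stand against 10.8% of all genes higher and 30.3% lower, and those of the adhesion genes and integrin activators are near them.

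Neutrophil granule and erythroid markers moved with age as well, and the part of marker genes in the results above was not tested. The counts below stand against 20.6% of all genes higher and 21.8% lower. A peak counts for each gene within 15 kb, so neighbouring genes of a list can share peaks. The counts and sums of a list are therefore not over separate loci. Of 14 neutrophil granule genes, 13 were higher at 18 months and 0 were lower (edgeR adjusted p), all but Cebpe. Ngp (0.57 ± 0.049 SE, adjusted p = 1.38e-08) and S100a8 (0.55 ± 0.071 SE, adjusted p = 3.01e-06) were among them. Of the 15 erythroid genes the 14 with a peak were all lower, with a median of -0.70, and Ahsp had no peak. Their summed level ran from 1657 to 2001 CPM at 3 months, lowest in library BM-253, and from 1111 to 1285 CPM at 18 months. Of 11 monocyte and macrophage genes 10 had a peak and 6 were higher, the sum running from 280.1 to 296 CPM at 3 months and from 315 to 333 CPM at 18 months. Of the 9 B cell genes 1 was higher (Ms4a1), and the sums overlapped: 499.7 to 539 CPM at 3 months and 477 to 568 CPM at 18 months. Of 9 T cell genes with a peak 4 were higher and 1 lower (327 to 343 and 336 to 368 CPM), and of 5 NK cell genes with a peak 3 were higher (166 to 189 and 190.2 to 213 CPM). The 6 megakaryocyte genes were split, 3 higher and 3 lower, with Pf4 and Ppbp sharing their peaks (304 to 327 and 242 to 282 CPM). Without library BM-253, where 22.4% of all genes were higher, 13 of the neutrophil granule genes were higher, 14 of the erythroid genes were lower, and the megakaryocyte genes split as 1 higher and 3 lower. The share of all genes lower in that fit is not given here. With the factors of the peak table, where 10.8% of all genes were higher and 30.3% lower, 9 of the 14 neutrophil granule genes with a peak were higher and none lower, all 14 erythroid genes with a peak were lower, and 5 monocyte and macrophage genes were higher and 1 lower. The counts were 2 higher and 1 lower for T cells, none either way for NK cells and 3 lower for megakaryocytes.

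**Figure D4:**
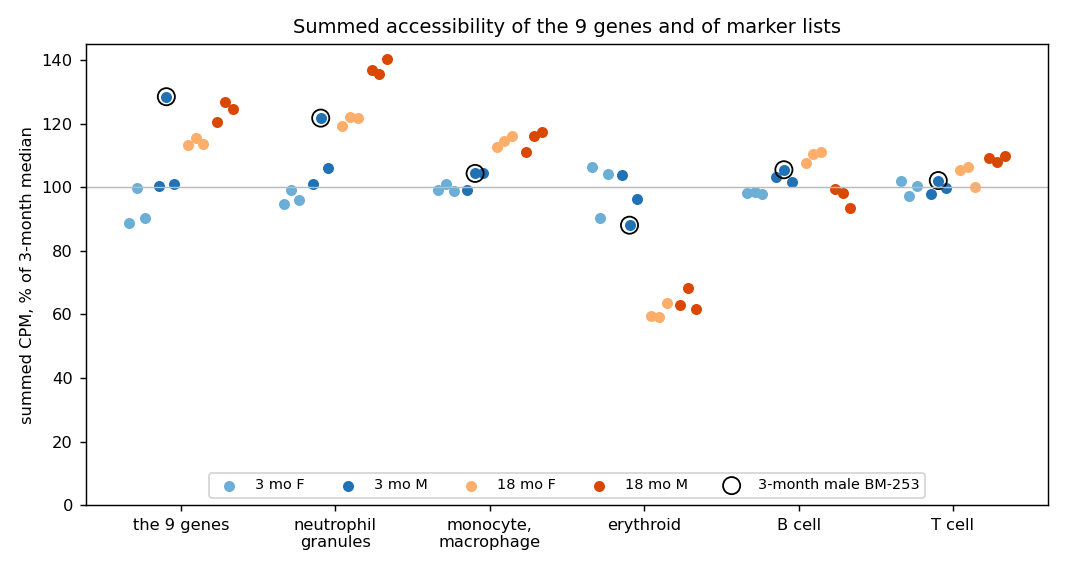
Summed gene CPM in each library as a percentage of the 3-month median, for the 9 genes and for marker lists of the cell types in marrow. The 3-month male library BM-253 lies above the 18-month libraries for the 9 genes and among them for the neutrophil granule genes, and is the lowest 3-month library for the erythroid genes.

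After the 4 group means were removed, each gene was compared over the 12 libraries with the mean of the other 8, and Pearson's r was 0.83 for Itgb2, 0.82 for Itgam, 0.81 for Ptafr, 0.78 for Trem1, 0.75 for Fpr1, 0.68 for Csf3r, 0.61 for Selplg, 0.58 for Fpr2 and 0.079 for Prok2. Without library BM-253, over 11 libraries, r was higher for Fpr1 (0.77) and Fpr2 (0.74). The values of the other genes rested in part on that library. Without it r fell to 0.59 for Itgam, 0.49 for Ptafr, 0.36 for Trem1, 0.34 for Itgb2, 0.028 for Selplg, -0.31 for Csf3r and -0.34 for Prok2. Among 16900 other protein-coding genes sharing no peak with the 9, the 5 most like their mean were Tspan5 (0.974), Crispld2 (0.974), Atp11a (0.966), Tmcc1 (0.961) and Atf3 (0.953). Over all genes compared, the median r with that mean was 0.0048 and the 0.99 quantile was 0.86. Without library BM-253 the 5 genes stood between 0.86 and 0.91. These correlations are given as a description over 12 libraries, in which all genes share a library's depth and cell makeup.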

How the data were processed

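The authors deposited whole-number read counts for 75281 consensus peaks in 12 ATAC-seq libraries, with no normalization and a smallest count of 1. The submitters' processing notes name Trimmomatic, BWA, MACS2, DiffBind and edgeR and the build mm10; how the consensus was made, duplicates treated and read ends shifted is not given in the sources used here, and duplicates left in would understate counting error.

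The 75164 peaks that passed 1 CPM in 2 or more libraries, all 70 described here among them, were TMM-scaled and fitted in edgeR 4.0.16 (R 4.3.3; quasi-likelihood F test), with age and sex as terms or with 4 group means. P-values were adjusted over all tested peaks by the Benjamini-Hochberg method (threshold 0.05). Gene sums over peaks within 15 kb were tested likewise over 16919 protein-coding genes. The genes and lists were chosen with earlier results of these data known, and some list genes are not reported here by name. For each gene the peaks with the highest mean, nearest the start site (or a gene end) and with the smallest p were named, and the 5 most similar genes. Alternatives were DESeq2 1.42.0, other scalings, windows and filters, and leaving out each library.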

Additional observations from a re-analysis of the deposited data

Results flagged for a closer look

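In 3 of 18 groups of 6 libraries tested (9 genes, 2 ages), 1 library stood far from the rest, and each time it was the 3-month male library BM-253. It had the highest 3-month value near Csf3r, 156.6 CPM, and the gap to the next library was 0.732 of the group's range. Near Itgb2 it stood at 186.9 CPM with a gap of 0.720, and near Trem1 at 63.2 CPM with a gap of 0.699. Chance alone flags about 1 group in 20. The 3 genes share this library, and it was the highest 3-month library in 8 of the 9 genes, so the 3 flags are not separate events.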

How the results depend on the processing

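Of the peaks named, 2 that were not called changed sign when 1 library was left out: the Csf3r peak at the start site (-0.17 to 0.042; above 0 without BM-253) and the Selplg peak with the highest mean (-0.0070 to 0.15; below 0 without the 3-month female library BM-244). No gene sum and no called peak named for its highest mean, its place or its smallest p changed sign. The sign of the other called peaks was not followed. Leaving out 1 library in turn gave 6 to 22 higher and 0 to 1 lower peaks of 70 for age, 5 to 9 higher genes of 9, 6 to 17 higher peaks in females, 1 to 11 higher and 0 to 3 lower peaks in males, and 0 to 4 lower peaks for the age by sex interaction. Counting only peaks inside the genes gave 10 higher and 0 lower for age, 7 higher in females and 0 lower in males. In males, scaling by total counts, abundance-trend offsets and peak-width offsets each gave 5 higher, and total counts, a fit on libraries of that sex only, a 5 kb window and peaks nearest to the gene each gave 1 lower. The shares of all peaks called in males under these settings are not given here. For age, total counts gave 24 higher, abundance-trend offsets 23 and DESeq2 13. Of the 16 higher peaks, 11 were also called under each of 4 other scalings or tests. The cause of these shifts was not tested, and the narrower windows also held fewer peaks. Selplg became called under total counts, abundance-trend offsets and without library BM-253, Csf3r under abundance-trend offsets and without library BM-253, and Prok2 without library BM-253 or the 18-month male library BM-39. Scaling gene sums with peak-table factors was added after seeing the data. Peaks inside the gene gave no value for Prok2. No paired analysis was possible because no replicate number is shared between groups. Counting error is largest in the peak with the lowest mean, 2.82 CPM.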
